A study of Homo sapiens with 2 samples.

Results

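The zinc finger cluster of 19p12 is a run of ZNF genes packed into the part of the short arm of human chromosome 19 that lies nearest the centromere. Its members were taken by name and place: every gene whose symbol is ZNF followed by a number, with or without a final P, and whose locus on chromosome 19 starts between 19.7 and 24.4 Mb in the deposited table. This gave 36 of the 25436 gene symbols analysed. The members were thus selected on symbol and position, and no expression value enters the rule. Expression was measured by sequencing of polyadenylated RNA in HuES53 and HuES64, a pair of diploid human embryonic stem cell lines. Both were undifferentiated and below passage 20, and they are in vitro fertilization (IVF) control lines of a study on haploid human embryonic stem cells. The labels name no transgene, treatment or selection in either line. Each line has 1 library and stands for 1 culture, so no value has a replicate error, no test or p-value is given, and each difference describes these 2 libraries. The cluster was picked out with earlier results of these data known, so the counts below describe it and support nothing further.

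Most genes of this cluster encode KRAB zinc finger proteins. Such a protein binds DNA through a row of C2H2 zinc fingers, each folded around a zinc ion, and its KRAB domain recruits the co-repressor TRIM28, which brings in the histone methyltransferase SETDB1 and heterochromatin protein HP1. Many of these proteins bind transposable elements. The cluster grew by repeated duplication in the primate lineage, and 2 of its members are well known for such targets: ZNF91 binds SVA elements and ZNF93 binds L1 elements. In embryonic stem cells this machinery keeps many retroelements silent.

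The upstream sequences show how alike the members are, and they are given here for members within and beside the stretch where the lines differed most. RefSeq's promoter table, on GRCh38.p14, holds 27 of the 36 members, with ZNF724P found under its newer name ZNF724. ZNF506, ZNF253, ZNF826P, ZNF738, ZNF676, ZNF729, ZNF98, ZNF99 and ZNF728 had no match. The 150 bases before the listed start are printed for the 3 members with an entry among 8 neighbours, ZNF208 to ZNF728, described below (ZNF208, ZNF257 and ZNF492), for the nearest members on either side (ZNF43 and ZNF730), and for ZNF91. Capitals mark the letters CCAAT, a box found in many promoters, and CTGTCACTCAGG, the run of 12 letters that most member promoters share, each searched on both strands. The windows are chr19:21836183-21836332 for ZNF43, chr19:22010944-22011093 for ZNF208 and chr19:23395472-23395621 for ZNF91, all on the minus strand, and chr19:22052334-22052483 for ZNF257, chr19:22634174-22634323 for ZNF492 and chr19:23116875-23117024 for ZNF730, all on the plus strand.
ZNF43: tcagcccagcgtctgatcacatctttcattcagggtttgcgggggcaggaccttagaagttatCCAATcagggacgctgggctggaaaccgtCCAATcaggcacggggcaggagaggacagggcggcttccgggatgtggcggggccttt
ZNF208: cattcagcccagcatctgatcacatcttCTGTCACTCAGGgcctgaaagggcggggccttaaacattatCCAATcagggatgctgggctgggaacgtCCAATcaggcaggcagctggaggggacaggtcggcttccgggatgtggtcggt
ZNF257: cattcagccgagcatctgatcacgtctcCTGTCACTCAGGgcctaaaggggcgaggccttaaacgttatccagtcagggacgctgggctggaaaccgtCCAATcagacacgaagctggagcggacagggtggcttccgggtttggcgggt
ZNF492: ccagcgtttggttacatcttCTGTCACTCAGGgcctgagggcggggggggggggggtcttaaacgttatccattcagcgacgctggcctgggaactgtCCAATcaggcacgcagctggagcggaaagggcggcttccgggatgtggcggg
ZNF730: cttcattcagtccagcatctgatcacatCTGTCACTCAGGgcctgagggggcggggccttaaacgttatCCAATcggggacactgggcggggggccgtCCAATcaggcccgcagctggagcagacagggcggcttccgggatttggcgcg
ZNF91: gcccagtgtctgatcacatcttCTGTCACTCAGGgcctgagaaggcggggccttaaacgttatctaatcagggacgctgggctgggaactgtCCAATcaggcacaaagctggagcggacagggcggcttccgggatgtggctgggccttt

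In windows of 300 bases, from 250 before to 50 after the start, all 27 member promoters held CCAAT, against 35.7% of 27305 promoters in the table. The longer TCCAATCAGG, which contains CCAAT, stood in 25 of 27 and in 0.388% of all promoters. CTGTCACTCAGG stood in 18 of 27 and in 0.136% of all promoters. These longer runs are those of 10 and 12 letters held by most members, so their shares are descriptions. The GC box GGGCGG was found in 20 of 27 members and in 44.5% of all promoters. The promoters of ZNF208, ZNF257 and ZNF492 all held CCAAT and CTGTCACTCAGG, and 2 held TCCAATCAGG. Aligned over the 250 bases before the start, they were 77.6 to 81.8% identical to each other. Their 72 pairings with other members ran from 49.7 to 86.4%, with a median identity of 78.6%. The 276 pairs among the other members ran from 46.9 to 92%, with a median of 75.3%. Promoters outside the cluster were not aligned. In ZNF208, ZNF257 and ZNF492 the ratio of observed to expected CpG ran from 0.414 to 0.615, against 0.333 to 0.723 in the other 24.

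Most of the cluster was transcribed in both lines. Levels are in FPKM, fragments scaled by transcript length and library depth, as the authors deposited them, and can be compared between genes. At 1 FPKM or more in both lines stood 26 of the 36 members, against 51.6% of all symbols. No member was highly expressed. The highest in both lines was ZNF90, with 22.1 FPKM in HuES53 and 14.6 FPKM in HuES64. ZNF93, the L1-binding member, came second in both lines, at 15.2 and 13.1 FPKM. The median over the 36 members was 5.21 FPKM in HuES53 and 2.82 in HuES64, and their sum was 253 FPKM in HuES53 and 146 in HuES64. In bulk RNA, fewer cells that express a gene and less of its RNA per cell cannot be told apart. ZNF99 (0.189 FPKM in HuES53, listed at 0 in HuES64) and ZNF726 (0.644 and 0.158 FPKM) were the 2 members under 1 FPKM in both lines. The remaining 8 members were at or above 1 FPKM in HuES53 and below it in HuES64, against 2.6% of all symbols. The opposite was seen in none of the 36 members and in 441 of all 25436 symbols, which is a small share too.

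**Figure D1:**
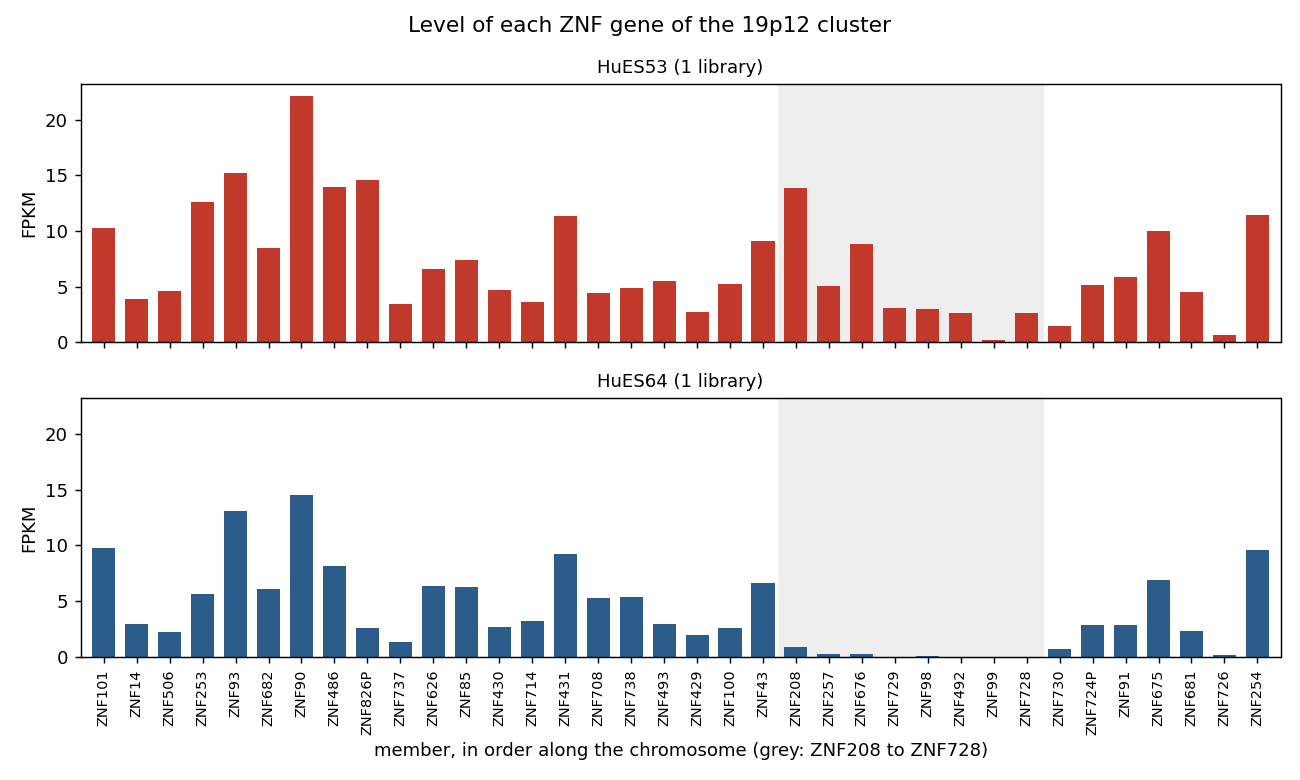
FPKM of each of the 36 members in HuES53 (upper panel) and HuES64 (lower panel), in order along the chromosome, 1 library a line; bars start at 0. In the grey stretch from ZNF208 to ZNF728 the bars of HuES53 reach 13.8 FPKM, while no bar of HuES64 exceeds 0.869 FPKM.

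A difference is log2(FPKM + 1) of HuES53 less that of HuES64. It was taken where the mean of both lines reached 1 FPKM, and folds below are on that scale, which makes the change of low genes look smaller. Of the 36 members 34 reached this mean. Of these, 32 were higher in HuES53, against 52.5% of all 13790 genes that reached it. A total of 9 of 34 (26.5%) was at least 2-fold higher in HuES53, against 2.15% of all genes. Of the 9, 7 stood below 1 FPKM in HuES64 and so reached the mean only through HuES53. None of the 34 was at least 2-fold higher in HuES64, against 1.7% of all genes. The median difference was 0.66, and 0.03 over all genes.

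The differences were concentrated in 8 neighbouring members, from ZNF208 to ZNF728, a stretch that was delimited after its values were seen. It covers 1.04 Mb (chr19:22148897-23186010, as the table counts positions) and has 21 members before it and 7 after it. These positions are not those of GRCh38.p14, so they cannot be set beside the promoter windows above. All 8 stood below 1 FPKM in HuES64, and 7 of them stood between 2.64 and 13.8 FPKM in HuES53. ZNF208 opens the stretch with 13.8 FPKM in HuES53 against 0.869 in HuES64, a difference of 2.99 (7.94-fold). ZNF257, the next gene, stood at 5.08 and 0.215 FPKM, a difference of 2.32. ZNF676 stood at 8.83 and 0.238 FPKM, a difference of 2.99. The level in HuES64 was thus 6.28% of that in HuES53 for ZNF208, 4.24% for ZNF257 and 2.70% for ZNF676. ZNF729 had 3.04 FPKM in HuES53, and in HuES64 the table lists it at 0. ZNF98 stood at 3.003 and 0.0633 FPKM, and ZNF492 at 2.64 and 0.0161 FPKM. These 3 were low in HuES53 too, but their HuES64 values lay at the floor of what the library could show. ZNF99 was near 0 in both lines, as given above. ZNF728 closes the stretch with 2.65 FPKM in HuES53 and is listed at 0 in HuES64. No fold is given for genes listed at 0, since such a value can be a failed estimate. ZNF729 and ZNF728 still enter the counts and ranges of differences, which share this limit. Summed over the 8 members, the stretch held 39.3 FPKM in HuES53 and 1.40 in HuES64.

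The levels on either side of the stretch differed. ZNF43, whose locus ends 130 kb before that of ZNF208 starts, had 9.14 FPKM in HuES53 against 6.66 in HuES64, a difference of 0.40. ZNF730, whose locus starts 62.8 kb after ZNF728 ends, stood at 1.43 and 0.659 FPKM, a difference of 0.55. Thus the HuES64 level was 72.9% of the HuES53 level just before the stretch and 46.2% just after it. In HuES64 itself ZNF730 was lower than ZNF208, so on that side the stretch is bounded by the ratio between the lines and not by the level in HuES64. Inside the stretch the table also has 3 rows that are no ZNF genes, LOC100128139, LOC440518 and LOC374890. They were at 0.148 FPKM or below in HuES53 and listed at 0 in HuES64, so they do not show whether other genes there differed. Along the genome, 7 of the 8 members formed the longest run of neighbouring genes, each averaging 1 FPKM or more, that were at least 2-fold higher in HuES53. ZNF99 was passed over as too low, and the next longest such run had 3 genes. The required mean shaped this run, since all 7 reached it only through HuES53 and ZNF99 was taken out by it. A gene near 0 in HuES64 that reaches this mean is always at least 2-fold higher by this measure. In the other direction the longest run had 9 genes, metallothionein genes and pseudogenes of chromosome 16.

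**Figure D2:**
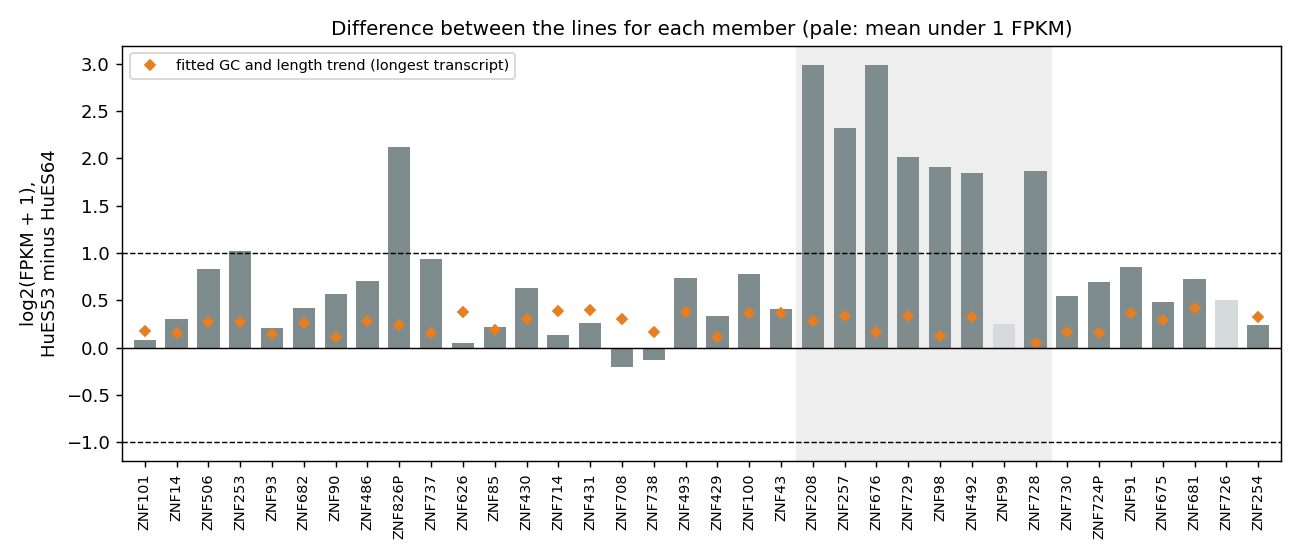
Difference in log2(FPKM + 1), HuES53 minus HuES64, for each member in chromosome order; dashed lines mark 2-fold, pale bars members with a mean under 1 FPKM, diamonds the difference fitted from GC content and transcript length. The grey stretch from ZNF208 to ZNF728 has 7 bars between 1.84 and 2.99, and ZNF826P, at 2.12, is the other bar of that height.

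The values near 0 rested on very few fragments. From the steps of low values in short olfactory receptor genes, 1 FPKM over 1 kb stood for about 18.8 fragments in HuES53 and 15.4 in HuES64. With the longest GENCODE transcript of each gene, ZNF492 had about 201 fragments in HuES53 and 1.00 in HuES64, and ZNF98 about 120 and 2.08. By the same estimate ZNF676 had 454 and 10.03 fragments and ZNF208 985 and 50.7. These are estimates, since the depth was fitted to few values and the transcript used by the authors is not given in the sources used here. Reads of near-identical copies also cannot be assigned with certainty, so low values within this family may include fragments of a relative.

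Outside the stretch, 2 members were at least 2-fold different with the pseudocount of 1 FPKM. With a pseudocount of 0.1 FPKM there were 6 (ZNF506, ZNF253, ZNF826P, ZNF737, ZNF730 and ZNF91), when 4.24% of all genes passed, and with TPM scaling 7, when 5.22% passed. The same 7 members of the stretch passed under each of these settings. A smaller pseudocount and TPM scaling both raise their differences, so none of the 7 could drop out. ZNF826P, a transcribed pseudogene, had 14.6 FPKM in HuES53 against 2.59 in HuES64, a difference of 2.12 (4.34-fold). It lies within the 21 members before the stretch, between ZNF486 and ZNF737, and its locus overlaps a microRNA row that is listed at 0 in both lines. ZNF253 stood at 12.6 and 5.66 FPKM, a difference of 1.03 and thus just past 2-fold, and with median of ratios scaling it was just below it, at 0.998. Just below 2-fold was ZNF737, at 3.44 and 1.32 FPKM, a difference of 0.94. Its neighbour ZNF626 had nearly the same level in both lines, at 6.60 and 6.34 FPKM.

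A moderate difference was common among the 27 members outside the stretch that reached a mean of 1 FPKM. Of these, 25 were higher in HuES53, against 52.5% of all genes, with a median difference of 0.48, against 0.03. Among the 1291 genes lowest in GC content, described below, 84.2% were higher in HuES53, with a median of 0.32. ZNF91, the SVA-binding member, had 5.90 FPKM in HuES53 against 2.81 in HuES64, a difference of 0.86, while ZNF93 differed by 0.20. The members between ZNF101 and ZNF43 had a median difference of 0.40, and those after ZNF728 one of 0.62. After the stretch, ZNF724P stood at 5.19 and 2.83 FPKM, ZNF681 at 4.51 and 2.32, and ZNF675, whose product is known as an inhibitor of TRAF6 signalling, at 9.98 and 6.88. ZNF254, the last member before the end of the window, stood at 11.5 and 9.55 FPKM.

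Before the stretch, the members with the larger of these moderate differences were ZNF506 (4.66 and 2.19 FPKM), ZNF100 (5.22 and 2.62 FPKM), ZNF493 (5.55 and 2.93 FPKM), ZNF486 (13.9 and 8.16 FPKM), ZNF430 (4.72 and 2.70 FPKM) and ZNF90, whose values are given above. ZNF682 stood at 8.48 and 6.08 FPKM, ZNF429 at 2.74 and 1.96, and ZNF14 at 3.87 and 2.95. Closer to level were ZNF431 (11.3 and 9.24 FPKM), ZNF85 (7.43 and 6.26 FPKM), ZNF714 (3.62 and 3.21 FPKM) and ZNF101 (10.3 and 9.73 FPKM), the first member of the window. The 2 members that were higher in HuES64 were the neighbours ZNF708 (4.45 and 5.27 FPKM) and ZNF738 (4.84 and 5.39 FPKM). In groups of neighbours chosen after their values were seen, the 5 members from ZNF682 to ZNF737 lay between 0.42 and 2.12, and the 4 from ZNF714 to ZNF738 between -0.20 and 0.27. The lowest level in HuES64 among the 21 members on this side was that of ZNF737, 1.32 FPKM.

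The difference between these libraries moved with base composition, and the members are rich in A and T. The longest transcript of the 34 members had a median GC content of 37.5%, against 48.9% over all genes, and 23 of the 34 were among the 1291 genes lowest in GC out of 12906 with a transcript. Over those 1291 genes the median difference was 0.32, 84.2% of genes were higher in HuES53 and 4.03% were at least 2-fold higher. Over the 1291 highest in GC the median was -0.32. A trend over GC content and transcript length, fitted on all 12906 genes, had a median of 0.28 at the members. Once it was subtracted, the median of the members was 0.37, 27 of 34 were higher in HuES53, against 49.9% of all genes, and 8 of 34 were at least 2-fold higher, against 1.78%. The same fit on each gene's median transcript gave 0.49, 26 of 34 and 8 of 34, against 49.9% and 1.74% of all genes. In both fits 7 of the 8 were members of the stretch, which reached the mean only through HuES53 and differed by 1.84 or more. The trend fitted at these 7 was at most 0.334 on the longest and 0.453 on the median transcript, so none could drop below 2-fold. Outside the stretch 20 of 27 members were still higher on the longest-transcript fit, with a median of 0.23, and only ZNF826P was at least 2-fold different. Inside the stretch the 7 values lay between 1.52 (ZNF492) and 2.82 (ZNF676) after subtraction of the longest-transcript trend, and between 1.39 (ZNF492) and 2.79 (ZNF208) on the median transcript.

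**Figure D3:**
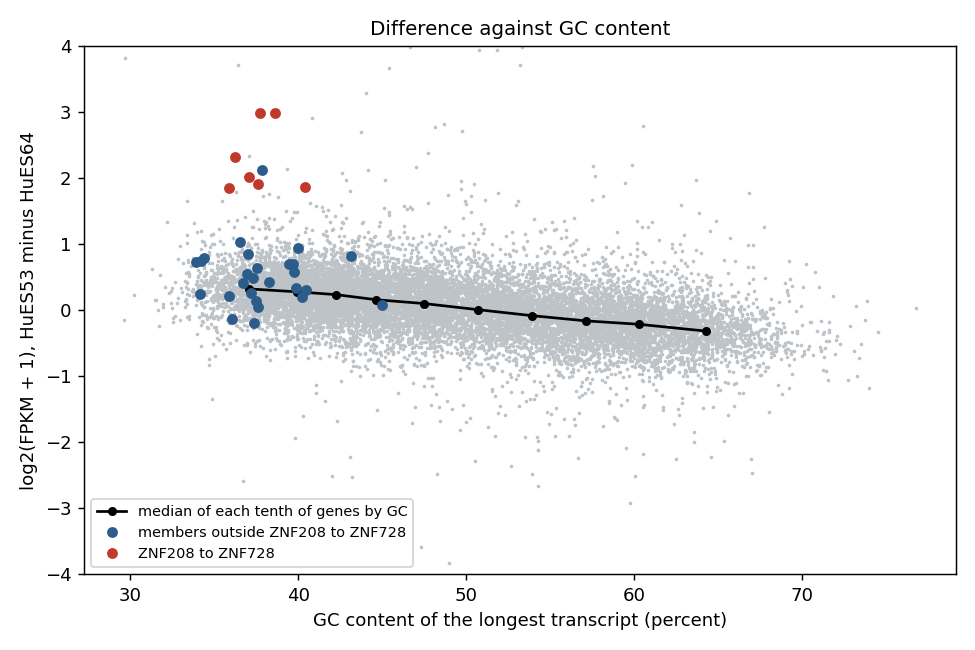
Difference in log2(FPKM + 1), HuES53 minus HuES64, against the GC content in percent of the longest transcript, for genes averaging 1 FPKM or more (grey), with medians over 10 equal groups by GC (black line); 35 genes lie beyond the axis limits. Members (blue outside the stretch, red for ZNF208 to ZNF728) lie at the low-GC end, where the first point of the line is at 0.32. The blue points run from -0.20 to 2.12 and the 7 red ones from 1.84 to 2.99.

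ZNF genes elsewhere had smaller median differences between the lines. By the same rule of symbols, 38 genes on chromosome 19 before the cluster (19p13) reached a mean of 1 FPKM and had a median difference of 0.10, with 2 (5.26%) at least 2-fold higher in HuES53, against 2.15% of all genes. The 139 after it, most of them in 19q13, had a median of 0.24, with 7 (5.04%) at least 2-fold higher. The 209 on other chromosomes had a median of 0.14, with 4 (1.91%). None of these 386 genes was at least 2-fold higher in HuES64, against 1.7% of all genes. After subtraction of the longest-transcript trend the 3 medians were -0.00, 0.08 and 0.02. The largest difference among them was that of ZNF528 in 19q13 (5.59 and 0.568 FPKM, a difference of 2.07), followed by ZNF718 on chromosome 4 (6.43 and 1.15 FPKM, 1.79). The nearest ZNF genes outside the window are far off: ZNF333 before it stood at 1.51 and 1.68 FPKM, and ZNF536 after it was listed at 0 in both lines. No test of the difference between these sets and the cluster is possible with 1 library a line.

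**Figure D4:**
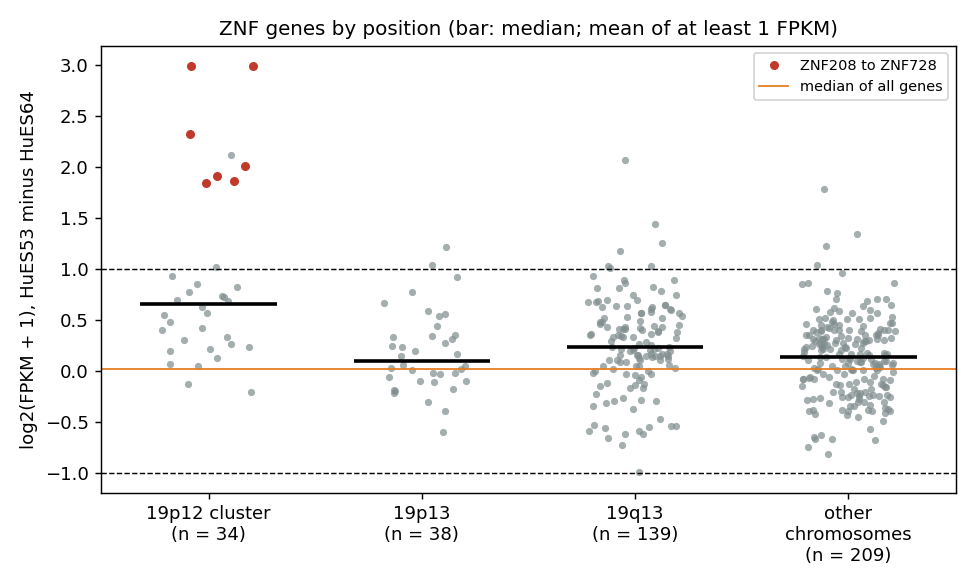
Difference in log2(FPKM + 1), HuES53 minus HuES64, of ZNF genes averaging 1 FPKM or more, by position; each point is a gene, black bars are medians, the orange line is the median of all genes (0.03) and dashed lines mark 2-fold. The median of the cluster (0.66) lies above those of 19p13 (0.10), of the 19q13 set (0.24) and of other chromosomes (0.14), and the points of ZNF208 to ZNF728 (red) lie between 1.84 and 2.99, a range that also holds ZNF826P at 2.12.

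Few of the genes in the same window that are no members reached a level at which the lines could be compared. Of the 18 such rows, 7 reached a mean of 1 FPKM, none of them inside the stretch from ZNF208 to ZNF728. Of the 7, 3 were higher in HuES53, against 52.5% of all genes, with a median of -0.09. Among those 3, LOC400680 stood at 5.59 and 3.84 FPKM and GMIP at 6.48 and 5.26. The 4 with a transcript had a median GC content of 62.5%, unlike the members. Their fitted longest-transcript trend had a median of -0.27, and their median after its subtraction was -0.04. ATP13A1, an ATPase gene next to ZNF101, had 17.1 FPKM in HuES53 against 18.2 in HuES64. LOC100132815, between ZNF724P and ZNF91, stood at 2.29 and 2.14 FPKM. RPSAP58, a ribosomal protein pseudogene between ZNF681 and ZNF726, stood at 1368 and 2009 FPKM, a value that may hold fragments of its parent gene.

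The machinery that KRAB zinc finger proteins act through was mostly expressed at similar levels. All 28 co-repressor and heterochromatin genes averaged 1 FPKM or more, 22 were higher in HuES53, against 52.5% of all genes, and the median difference was 0.12. After subtraction of the longest-transcript trend 16 of the 28 were higher, against 49.9% of all genes, with a median of 0.076. TRIM28 had 360 FPKM in HuES53 against 388 in HuES64, and SETDB1 at 12.7 and 14.7. The HP1 genes were close to level, with CBX1 at 165 and 142 FPKM, CBX3 at 170 and 150, and CBX5 at 28.4 and 26.1. ATF7IP, a partner of SETDB1, stood at 27.9 and 15.8 FPKM, and MPHOSPH8, of the HUSH silencing complex, at 8.37 and 5.55. The maintenance DNA methyltransferase gene DNMT1 stood at 34.0 and 31.9 FPKM, and the de novo enzyme gene DNMT3B at 521 and 376. The only gene of the list at least 2-fold different was ZFP57, itself a KRAB zinc finger gene, known for keeping methylation at imprinted regions, at 26.6 and 1.09 FPKM.

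Transcripts known to start in or run through HERV-H elements, a retrovirus family active in pluripotent cells, were mostly higher in HuES53. Of 8 listed symbols 5 were found in the table, and 4 of the 5 were higher in HuES53, against 52.5% of all genes. The symbols LINC-ROR, LINC01108 and ERVH48-1 were not matched. ABHD12B had 22.4 FPKM in HuES53 against 5.69 in HuES64, and CALB1 at 19.02 and 6.93. ESRG, which overlaps another row, stood at 706 and 355 FPKM, HHLA1 at 26.2 and 13.8, and LINC00458 at 125 and 127. No relation of these values to the cluster was tested.

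Both libraries carried the markers of pluripotent cells. All 8 listed pluripotency genes stood at 57.0 FPKM or above in both lines, with POU5F1 at 1053 FPKM in HuES53 against 1381 in HuES64. The 4 neuroectoderm markers reached at most 1.19 FPKM in HuES53 and 0.720 in HuES64. The 5 endoderm markers summed to 108 FPKM in HuES53 and 60.4 in HuES64, with 4 of 5 higher in HuES53 (52.5% over all genes). CXCR4 made up a large part of these sums, at 68.1 and 26.3 FPKM, and SOX17 went the other way, at 6.89 and 10.6. The 4 mesoderm markers summed to 16.2 and 9.51 FPKM, and among them HAND1 alone was higher in HuES64, at 1.39 and 2.21. The 4 trophoblast markers summed to 11.5 and 7.42 FPKM, and CGA among them was listed at 0 in HuES64. The 8 fibroblast markers summed to 1042 and 1193 FPKM, mostly VIM, THY1 and COL1A1, which stem cells can also express. COL1A2 stood at 66.5 and 46.7 FPKM, COL3A1 at 3.08 and 8.00, LUM at 2.26 and 3.47, PDGFRB at 2.03 and 2.96, and DCN at 0.199 and 0.438. Of the 7 with a mean of at least 1 FPKM, 2 were higher in HuES53 (52.5% over all genes). The part of such cells in the levels of the cluster was not tested.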

How the data were processed

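RNA was measured in 2 human embryonic stem cell lines, 1 library each. The authors deposited 1 table of FPKM values with a locus per gene. TopHat2 2.0.4 and Cufflinks 2.0.2 are listed, with no role, in the submitters' processing notes. What build, annotation and strand setting they used is not given in the sources used here. Read as starting from 0, 1035 of 1067 microRNA loci match RefSeq's hairpin length. Loci are therefore printed with 1 added to the start, with no change of build.

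Chromosome Y (136 rows) was left out, and rows sharing a symbol (21 symbols) were summed. With 1 library a line, and FPKM in place of counts, there was no test. Depth was estimated from value steps in olfactory receptor genes under 1100 bases: 18 of 21 HuES53 values and 9 of 11 HuES64 values lay within 3% of a whole number of fragments, a fitted best case with 210 bases subtracted from each length. The trend was removed by medians over 20 bins of GC content and 20 of length in 5 rounds, with GENCODE release 29 transcripts matched by symbol (93.6% of genes, all 34 members). The removal was also run on simulated differences, with the median transcript and with shifted genes drawn at random. That run does not cover shifted genes gathered at low GC content, where the members lie, or the longest-transcript fit. Python 3.11.15, pandas 2.3.3 and Biopython 1.88 were used. Of genes with several starts in the promoter table the most upstream was used.

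The alternatives were other pseudocounts, filters, scalings, row choices and trend fits, and leaving out overlapping loci. The members and lists were chosen with earlier results of these data known. Every member is named with both values. Other genes named come from the lists, the window or the sets compared.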

Additional observations from a re-analysis of the deposited data

How the results depend on the processing

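The median difference of the members was 0.66 as deposited, 0.82 and 0.73 with pseudocounts of 0.1 and 0.5 FPKM, 0.60 with no filter, and 0.40 for the 15 members averaging 5 FPKM or more. It was 0.72 with upper quartile, 0.64 with median of ratios and 0.92 with TPM scaling, which moved the median of all genes to 0.25. Removal of the GC and length trend gave 0.49, or 0.37 by the longest transcript, and leaving out overlapping loci gave 0.60. Without the 8 members from ZNF208 to ZNF728 it was 0.48. The last of these settings and the longest transcript were chosen after seeing the data. The summed FPKM of the members averaging 1 FPKM or more was 1.74 times higher in HuES53. In the same order it was 1.74 times with no filter, 1.55 (5 FPKM or more), 1.83, 1.70, 2.06, 1.54, 1.46, 1.66 and 1.48 times, and the pseudocount does not enter it. Of the count of members higher in HuES53, only that for a mean of at least 5 FPKM moved by over 1.5 times, to 14 of 15, as fewer genes entered. The count at least 2-fold higher in HuES53 was 9, and became 3 with that filter, 10 and 13 with pseudocounts of 0.5 and 0.1 FPKM, 14 with TPM scaling and 2 without the 8 members. Of these, 3, 6 and 7 lay outside the stretch with the pseudocounts of 0.5 and 0.1 FPKM and with TPM scaling, against 2 as deposited. With the filter at 5 FPKM the 3 were ZNF208, ZNF253 and ZNF826P, so only ZNF208 came from the stretch. None was 2-fold higher in HuES64 under any of these settings. At 5 FPKM, 12 members were detected in both lines and 14 in neither, and at 0.1 FPKM none was in neither line (0 of 36). With TPM scaling, the trend removed, and the trend on longest transcripts removed, the medians were 0.36, 0.096 and 0.076 for the co-repressor list, 0.47, 0.13 and 0.080 for the 19q13 set, 0.33, 0.068 and -0.0012 for 19p13, and 0.37, 0.051 and 0.024 for other chromosomes. The change of sign for 19p13 is from 0.10 to -0.0012, and the cause was not tested. Using the highest row for repeated symbols changed no value for the members. No paired analysis was possible because each line has 1 library and no test was made. Without replicates, depth limits most the members of the stretch near 0 in HuES64, where about 1 fragment separates a low value from 0.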
